A study of Mus musculus with 6 samples.

Results

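The interferon-stimulated genes described here are a list of 39 mouse genes that cells switch on when interferon binds its receptors. They were compared between tumour cells sorted as CD133 high and tumour cells sorted as CD133 low, with 3 arrays for each fraction. The members were taken by gene symbol. Each was read from the probe set, a group of short array oligonucleotides, that was assigned to that gene alone and was brightest by the mean of all 6 arrays. Of the 39 genes, 37 were measured in this way, among 18193 measured genes in all. Isg15, a ubiquitin-like modifier, shares its probe set with a second gene, and no probe set of Ifi44 was used here, so neither has a value.

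Both fractions came from tumours grown under the skin of syngeneic mice from 344SQ. This lung adenocarcinoma line was derived from a KrasLA1/+; p53R172HdelG/+ mouse and spreads widely after injection, and both fractions carry its alleles. CD133 is a surface glycoprotein encoded by Prom1, and the study's title concerns a cell population prone to metastasis. The labels give no treatment of any sample, and they do not say how many animals or sorts the arrays represent, nor the animals' age. All samples come from 1 line, so nothing here shows how other lines behave.

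Type I interferons act through a receptor of Ifnar1 and Ifnar2 and through JAK kinases, which lead to a complex that holds Stat2 and Irf9 and binds the interferon-stimulated response element in promoters. Interferon gamma acts through its own receptor, and its signal reaches promoters at the gamma-activated site. The genes switched on make proteins that sense viral RNA, block viral replication, attack vacuoles that hold microbes or pass the signal on, and in tumours both cancer cells and leukocytes can express them.

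Values are log2 probe set values as deposited, and a difference is CD133 high minus CD133 low on that scale, with a standard error (SE) from limma. The threshold was a Benjamini-Hochberg adjusted p of 0.05 over all probe sets. Prom1, the check of the sort, stood at 6.80, 6.63 and 6.40 on CD133 high replicates 1, 2 and 3 and at 5.49, 5.92 and 6.06 on the CD133 low arrays, a difference of 0.79 (adjusted p = 0.297). CD133 high replicate 1 stood apart from the other CD133 high arrays, and its mean Spearman rho over probe sets was 0.973 with the CD133 low arrays and 0.931 with CD133 high replicates 2 and 3. The BioB, BioC and BioDn hybridisation controls averaged 10.18, 11.05 and 10.81 on CD133 high replicates 1, 2 and 3 and 9.94 to 10.28 on the CD133 low arrays. For Gapdh, the 3' control probe set minus the middle one was −0.13, 0.44 and 0.46 on the same CD133 high arrays and −0.09 to −0.07 on the CD133 low arrays. Results are given for all arrays. Values without CD133 high replicate 1 stand beside those of some genes, including each member whose call at its brightest probe set changed without it.

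The promoters of many members hold a match to the interferon-stimulated response element. RefSeq promoter windows of build GRCm38.p6, from 250 bases before to 50 bases after a start, were found for 29 of the 39 members. The response element was searched as GAAA, any 2 bases and GAAA, or as the reverse complement TTTC, any 2 bases and TTTC, and matches may overlap one another. It was present for 15 of the 29 members (51.7%), against 3.99% of all 27025 genes with a window. By window the shares were 42.9% of 35 for the members and 3.44% of all 32851. The gamma-activated site, searched as TTCNNNGAA, which reads the same on both strands, was present for 9 of the 29 members (31.0%), against 9.55% of all genes, and by window in 25.7% and 8.3%. A match is a description of the letters and is not a measured binding site. Sequence of 70 bases is shown for 4 GTPase genes whose CD133 high arrays all lay below the CD133 low arrays, then for Ifit1 and Rsad2, which had other patterns across the arrays. Each runs 5′ to 3′ on the strand of the gene, and the capitals mark the matches to the response element on either strand:
Igtp, chr11:58199486-58199555, plus strand: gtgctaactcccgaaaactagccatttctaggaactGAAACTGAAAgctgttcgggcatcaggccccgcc
Irgm1, chr11:48871421-48871490, minus strand: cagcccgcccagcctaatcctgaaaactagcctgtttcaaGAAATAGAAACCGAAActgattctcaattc
Gbp2, chr3:142620574-142620643, plus strand: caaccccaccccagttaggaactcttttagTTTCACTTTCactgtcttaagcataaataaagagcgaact
Gbp3, chr3:142559946-142560015, plus strand: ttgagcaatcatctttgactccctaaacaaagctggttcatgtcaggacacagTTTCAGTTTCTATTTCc
Ifit1, chr19:34640764-34640833, plus strand: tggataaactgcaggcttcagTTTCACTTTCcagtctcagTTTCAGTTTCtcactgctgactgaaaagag
Rsad2, chr12:26456533-26456602, minus strand: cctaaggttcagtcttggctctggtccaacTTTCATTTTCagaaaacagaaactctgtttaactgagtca

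The interferon-stimulated genes had differences of both signs between the fractions. Of the 37 measured members, 16 had a positive and 21 a negative difference, with a median of −0.17 and a range of −1.79 to 1.16, beside a median of 0.00 over all genes. In limma 0 members were higher and 0 lower at the threshold, where 0.022% of all genes were higher and 0.231% lower. At an unadjusted p under 0.05, 3 members were higher (Ifih1, Ifit2 and Oas2), or 8.11%, against 8.3% of all genes, and 8 were lower (Bst2, Gbp3, Ifi35, Ifi47, Igtp, Oas1a, Xaf1 and Zbp1), or 21.6%, against 9.94% of all genes. The CD133 high arrays were all above every CD133 low array for 4 members (Ifih1, Mx1, Oas2 and, by a margin too small to show at 2 decimals, Oasl1), or 10.8%, the same share as the 10.8% of all genes. They were all below for 9 members (Bst2, Gbp2, Gbp3, Ifi35, Ifi47, Igtp, Irgm1, Xaf1 and Zbp1), or 24.3%, against 12.8% of all genes. Nothing in the labels says that the arrays of a fraction are separate animals, so each p-value reflects the spread among these arrays and nothing wider, and that spread may be technical. In sorted bulk samples, fewer cells of a type that expresses a gene and less RNA of that gene per cell cannot be told apart.

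**Figure D1:**
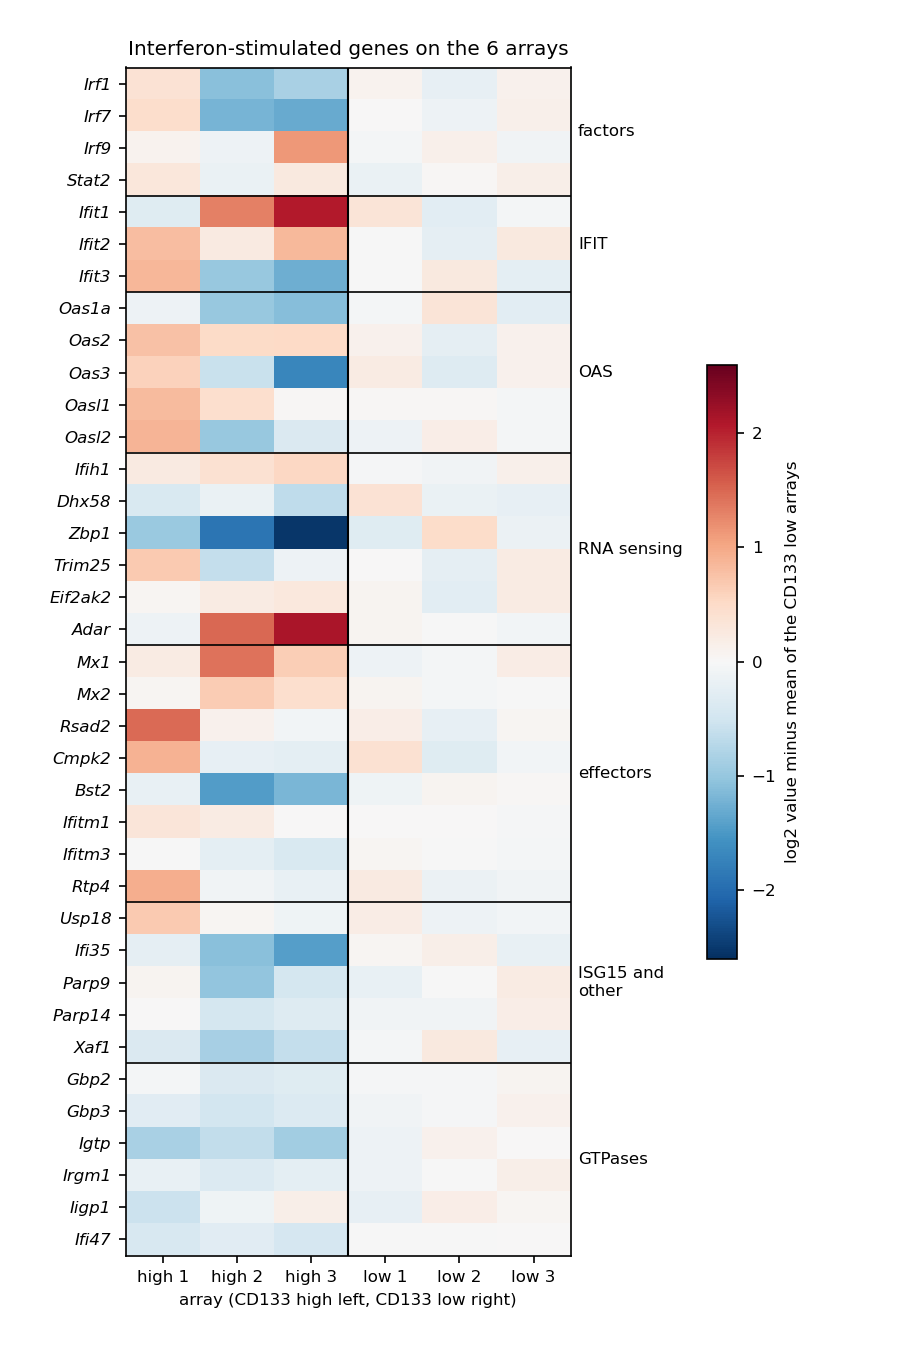
Heat map of the 37 measured members (rows, grouped by role) on the 6 arrays (columns, CD133 high left of CD133 low). Colour is the log2 value minus the mean of the CD133 low arrays, red above and blue below, and the GTPases at the bottom are pale blue on nearly all CD133 high arrays whereas many other members differ in colour between CD133 high replicate 1 and replicates 2 and 3.

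The guanylate binding proteins and immunity-related GTPases, which bind to vacuoles around intracellular microbes and are induced above all by interferon gamma, were the group with the most even pattern. All 6 had negative differences, between −0.79 and −0.17, with a median of −0.32, and for 5 of the 6 the CD133 high arrays were all below, as they were for 12.8% of all genes. No member passed the threshold. Measured from the CD133 low mean, their median was −0.36, −0.37 and −0.33 on CD133 high replicates 1, 2 and 3. The array that stood apart elsewhere thus gave a similar median here, but single genes still differed between the arrays. On the same arrays Gbp2 was at −0.05, −0.38 and −0.32 and Iigp1 at −0.55, −0.10 and 0.15.

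Igtp, also called Irgm3, a regulatory immunity-related GTPase, had log2 values of 9.11, 9.32 and 9.05 on the CD133 high arrays and 9.82, 10.07 and 9.96 on the CD133 low arrays. The lowest CD133 low array lay above the highest CD133 high array by more than the SD of either fraction, 0.141 and 0.125. The difference was −0.79 (SE 0.15), a ratio of 0.58, with the smallest adjusted p of the members at their brightest probe sets (0.154). It was −0.76 (SE 0.14, adjusted p = 0.0168) without CD133 high replicate 1, and over all alternatives it stayed between −0.93 and −0.73.

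Ifi47, a further GTPase of the immunity-related family, read 9.90, 10.02 and 9.88 in the CD133 high fraction against 10.31, 10.32 and 10.34 in the CD133 low fraction. The CD133 low arrays were nearly equal, and all CD133 high arrays were below them. The difference of −0.39 (SE 0.13) had an adjusted p of 0.297, and −0.37 (SE 0.10) without CD133 high replicate 1 had an adjusted p of 0.0475.

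Gbp3, a guanylate binding protein, had values of 9.50, 9.32 and 9.44 on the CD133 high arrays and 9.71, 9.77 and 9.90 on the CD133 low arrays, a difference of −0.37 (SE 0.14, adjusted p = 0.3). Gbp2, its relative on the same chromosome, read 8.74, 8.41 and 8.47 in CD133 high and 8.76, 8.75 and 8.86 in CD133 low. The nearest arrays of the fractions were almost equal, and the difference was −0.25 (adjusted p = 0.435). Irgm1, a regulator of the other immunity-related GTPases, read 8.87, 8.70 and 8.79 against 8.92, 9.04 and 9.20 in CD133 low, also without overlap (difference −0.27, adjusted p = 0.388). Iigp1, an effector GTPase that damages vacuole membranes, was the exception. Its values of 8.05, 8.50 and 8.75 in CD133 high lay across those of 8.40, 8.77 and 8.65 in CD133 low (difference −0.17, adjusted p = 0.710).

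**Figure D2:**
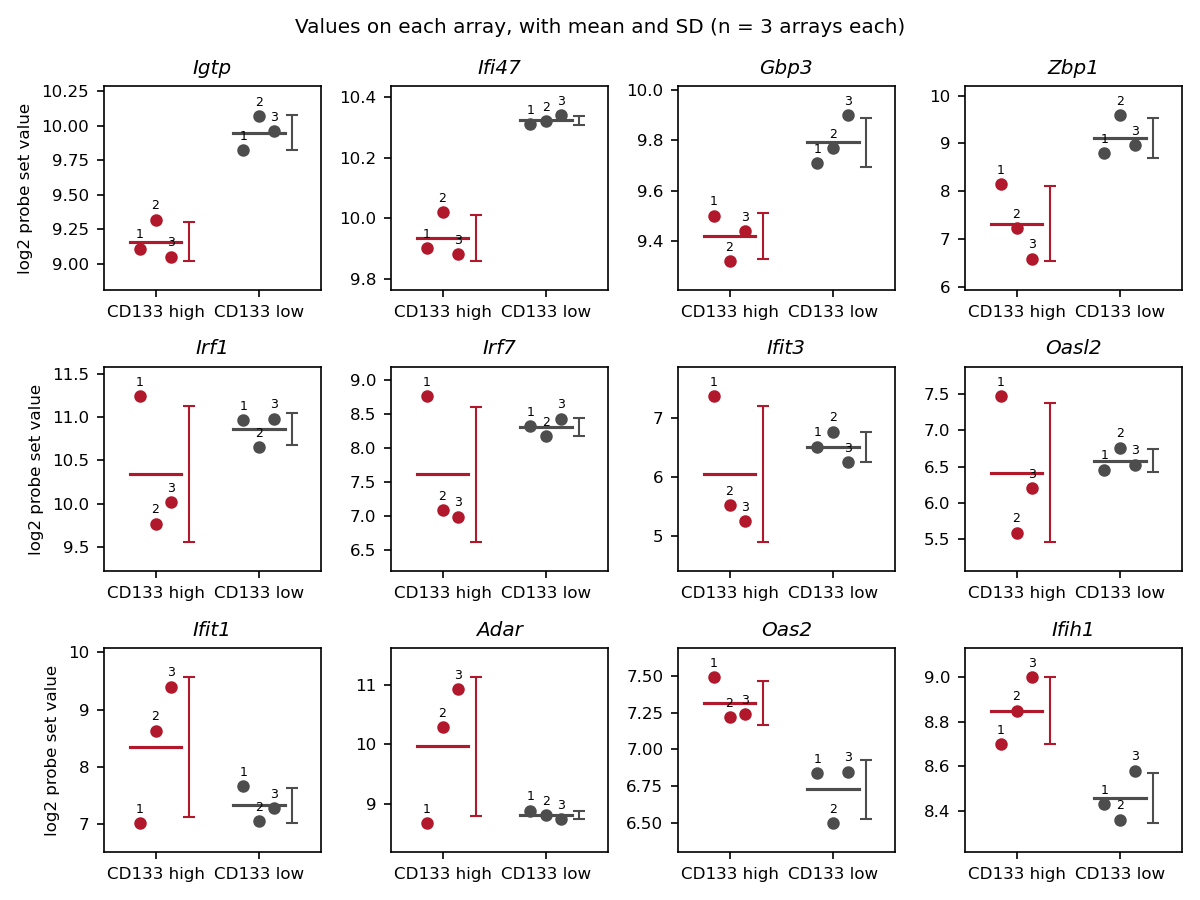
Log2 probe set values of 12 members on each array, CD133 high in red left of CD133 low in grey, with the replicate number above each point, a line at the mean and a bar of 1 SD (n = 3 arrays each). Each panel has its own vertical axis, which does not start at 0. Igtp, Ifi47, Gbp3 and Zbp1 lie below the CD133 low arrays on every CD133 high array, Irf1, Irf7, Ifit3 and Oasl2 have CD133 high replicate 1 above and replicates 2 and 3 below the CD133 low arrays, and Ifit1 and Adar have the opposite arrangement.

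Among the transcription factors, those that amplify the response were divided between the CD133 high arrays. Irf7, which drives the interferon alpha genes, had values of 8.76, 7.09 and 6.99 on CD133 high replicates 1, 2 and 3 and 8.32, 8.17 and 8.43 on the CD133 low arrays. Replicate 1 was above all CD133 low arrays and replicates 2 and 3 were below them. The SD was 0.992 in CD133 high and 0.127 in CD133 low, and the difference of −0.69 (SE 0.47) had an adjusted p of 0.462.

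Irf1, a factor induced by interferon gamma, showed the same order, with 11.24, 9.77 and 10.02 on the CD133 high arrays and 10.96, 10.65 and 10.98 on the CD133 low arrays (difference −0.52, adjusted p = 0.492). Without CD133 high replicate 1, Irf7 differed by −1.27 (SE 0.14, adjusted p = 0.00577) and Irf1 by −0.97 (SE 0.15, adjusted p = 0.0118). CD133 high replicate 1 by itself differed from the CD133 low mean by 0.45 for Irf7 and 0.37 for Irf1, neither past the threshold. The subunits of the type I signalling complex did not share this order. Irf9 read 8.73, 8.51 and 9.78 in CD133 high and 8.60, 8.78 and 8.55 in CD133 low (adjusted p = 0.586), and replicate 3 alone stood well above the CD133 low arrays. Stat2 read 6.54, 6.06 and 6.50 against 6.06, 6.26 and 6.39 in CD133 low (adjusted p = 0.792).

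The IFIT proteins, which bind viral RNA that lacks host marks, gave 3 different patterns although their genes lie in 1 cluster on chromosome 19. Ifit1 had values of 7.02, 8.63 and 9.40 on CD133 high replicates 1, 2 and 3 and 7.66, 7.05 and 7.28 on the CD133 low arrays. Replicates 2 and 3 were above all CD133 low arrays and replicate 1 just below them. The difference of 1.02 (SE 0.57) had an adjusted p of 0.396, and without CD133 high replicate 1 it was 1.68 (SE 0.29, adjusted p = 0.0159).

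Ifit3 was the reverse, at 7.37, 5.52 and 5.25 in CD133 high against 6.51, 6.77 and 6.25 in CD133 low. Its difference was −0.46 (SE 0.56, adjusted p = 0.683), and −1.12 (SE 0.26, adjusted p = 0.0355) without CD133 high replicate 1. Ifit2 was above the CD133 low mean on all CD133 high arrays, at 7.79, 7.22 and 7.83 against 6.97, 6.75 and 7.23 in CD133 low. The lowest CD133 high array and the highest CD133 low array were almost equal, so the fractions just overlapped, and the difference of 0.63 (SE 0.24) had an adjusted p of 0.305.

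The oligoadenylate synthetases, which make a second messenger that activates RNase L on double-stranded RNA, and their relatives were as mixed. Oas2 read 7.49, 7.22 and 7.24 in CD133 high against 6.84, 6.50 and 6.85 in CD133 low. All CD133 high arrays were above, with a difference of 0.59 (SE 0.20, adjusted p = 0.297), and 0.50 (adjusted p = 0.124) without CD133 high replicate 1. Oas1a read 8.95, 8.10 and 7.98 in CD133 high against 9.03, 9.43 and 8.81 in CD133 low. Its replicate 1 lay within the CD133 low range and the other replicates below it. The difference was −0.75 (SE 0.30, adjusted p = 0.313), and −1.05 (SE 0.20, adjusted p = 0.0209) without that array.

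Oas3, the neighbour of Oas2 on chromosome 5 with 0 protein-coding genes between them, read 6.01, 4.83 and 3.72 in CD133 high and 5.63, 5.07 and 5.52 in CD133 low. These are among the dimmest values of the list, and the difference was −0.56 (SE 0.58, adjusted p = 0.634). Oasl1 and Oasl2, also direct neighbours on chromosome 5, encode synthetase-like proteins. Oasl1 read 9.16, 8.77 and 8.37 against 8.37, 8.37 and 8.28 in CD133 low, a difference of 0.43 (adjusted p = 0.368), and of 0.23 without CD133 high replicate 1. Oasl2 read 7.47, 5.59 and 6.20 against 6.46, 6.76 and 6.53 in CD133 low, a difference of −0.16 (adjusted p = 0.871). Oas3 differed by −1.13 and Oasl2 by −0.69 without CD133 high replicate 1 (adjusted p = 0.127 for both).

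Among the RNA sensors and enzymes that act on RNA, Zbp1 had the lowest difference of all members. Zbp1, a sensor of Z-form nucleic acid that can start inflammatory cell death, read 8.15, 7.22 and 6.59 on the CD133 high arrays and 8.79, 9.59 and 8.96 on the CD133 low arrays. All CD133 high arrays were below, at −0.96, −1.89 and −2.53 from the CD133 low mean, and the difference was −1.79 (SE 0.42), a ratio of 0.29, with an adjusted p of 0.242. Without CD133 high replicate 1 it was −2.21 (SE 0.31, adjusted p = 0.00903). A second probe set of Zbp1 differed by −0.30 (adjusted p = 0.529).

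Ifih1, which encodes the double-stranded RNA sensor MDA5, read 8.70, 8.85 and 9.0 in CD133 high against 8.43, 8.36 and 8.58 in CD133 low, without overlap (difference 0.39, SE 0.16, adjusted p = 0.309). Dhx58, which encodes the related helicase LGP2, read 5.85, 6.09 and 5.59 against 6.62, 6.09 and 6.05 in CD133 low (difference −0.41, adjusted p = 0.462). Adar, an enzyme that edits adenosine to inosine in double-stranded RNA, had 8.67, 10.29 and 10.93 at its brightest probe set in CD133 high and 8.88, 8.80 and 8.74 in CD133 low. As with Ifit1, replicates 2 and 3 were above and replicate 1 just below. The difference was 1.16 (SE 0.53, adjusted p = 0.337), and 1.81 (SE 0.20, adjusted p = 0.0055) without CD133 high replicate 1. Eif2ak2, the kinase PKR that stops translation, differed by 0.18 (adjusted p = 0.622), and Trim25, a ubiquitin ligase of the RIG-I pathway, by −0.02 (adjusted p = 0.981), with fractions that overlapped for both.

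Among the effectors at membranes and of nucleotide metabolism, Bst2 was lower in sorted CD133 high cells on every array. Bst2, or tetherin, holds budding virus at the cell surface and is also carried by plasmacytoid dendritic cells. It read 8.12, 6.87 and 7.12 against 8.21, 8.38 and 8.35 in CD133 low, a difference of −0.94 (SE 0.33, adjusted p = 0.297), and of −1.32 (SE 0.15, adjusted p = 0.00574) without CD133 high replicate 1. Of 5 plasmacytoid dendritic cell markers, Siglech, Ccr9 and Ly6d differed by −1.84, −0.64 and −0.37 and Cox6a2 and Tcf4 by 0.31 and 0.27, none past the threshold. The mean log2 value of this list was 8.24 to 8.72 in CD133 high and 8.93 to 8.99 in CD133 low, and its part in the Bst2 result was not tested.

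Rsad2, which encodes the radical SAM enzyme viperin, read 11.23, 9.88 and 9.69 at its brightest probe set in CD133 high and 9.93, 9.56 and 9.81 in CD133 low. Replicate 1 alone was clearly above, and the difference was 0.50 (SE 0.40, adjusted p = 0.532). Cmpk2, a nucleotide kinase gene directly beside Rsad2 on chromosome 12, read 7.39, 6.26 and 6.22 against 6.87, 6.16 and 6.41 in CD133 low (difference 0.14, adjusted p = 0.865). Both had CD133 high replicate 1 as their highest array, and without it they differed by 0.02 and −0.24 (adjusted p = 0.945 and 0.565).

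Mx1, a dynamin-like GTPase that blocks viral replication, read 5.0, 6.19 and 5.43 in CD133 high against 4.65, 4.72 and 4.97 in CD133 low, in the dim range, without overlap (difference 0.76, SE 0.37, adjusted p = 0.354). Mx2, its relative, differed by 0.38 (adjusted p = 0.431). The membrane proteins Ifitm1 and Ifitm3, which hinder the fusion of viruses with cells, stood at 12.82 to 13.13 and 12.85 to 13.25 on the CD133 high arrays and at 12.79 to 12.84 and 13.20 to 13.31 on the CD133 low arrays. Their differences were 0.18 and −0.22 (adjusted p = 0.580 and 0.522), and the genes are direct neighbours on chromosome 7. Rtp4, a chaperone of receptors, differed by 0.22 (adjusted p = 0.738), and by −0.14 without CD133 high replicate 1.

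Of the remaining 5 members, 4 had negative differences. Ifi35, a protein released as a danger signal, read 10.62, 9.76 and 9.42 against 10.91, 11 and 10.66 in CD133 low, a difference of −0.92 (SE 0.31, adjusted p = 0.297). Xaf1, which antagonises an inhibitor of apoptosis, read 8.79, 8.30 and 8.54 against 9.12, 9.41 and 8.96 in CD133 low, a difference of −0.62 (SE 0.20, adjusted p = 0.297). Both had fractions that did not overlap, and without CD133 high replicate 1 they differed by −1.27 (adjusted p = 0.00747) and −0.75 (adjusted p = 0.0341). The ADP-ribosyltransferase genes Parp9 and Parp14 differed by −0.47 and −0.27 (adjusted p = 0.425 and 0.468). Usp18, the protease that removes Isg15 and damps receptor signalling, differed by 0.21 (adjusted p = 0.691), and by −0.03 without CD133 high replicate 1.

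Within the CD133 high fraction, most members were highest on replicate 1. This held for 25 of 37 members, or 67.6%, against 38.2% of all genes, and 7 members, or 18.9%, were lowest there, against 38.8%. The pattern was chosen after the values were seen and has no test. Replicate 1 was above all CD133 low arrays while replicates 2 and 3 were below them for 5 members (Ifit3, Irf1, Irf7, Oas3 and Oasl2), or 13.5%, against 7.07% of all genes. The opposite held for Adar and Ifit1, or 5.41%, against 6.34%. On CD133 high replicates 1, 2 and 3, the median of the 37 members against the CD133 low mean was 0.06, −0.26 and −0.27, beside −0.01, 0.04 and −0.04 for all genes. The median SD within CD133 high was 0.413 for the members and 0.393 for all genes, and within CD133 low 0.174 and 0.191.

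**Figure D3:**
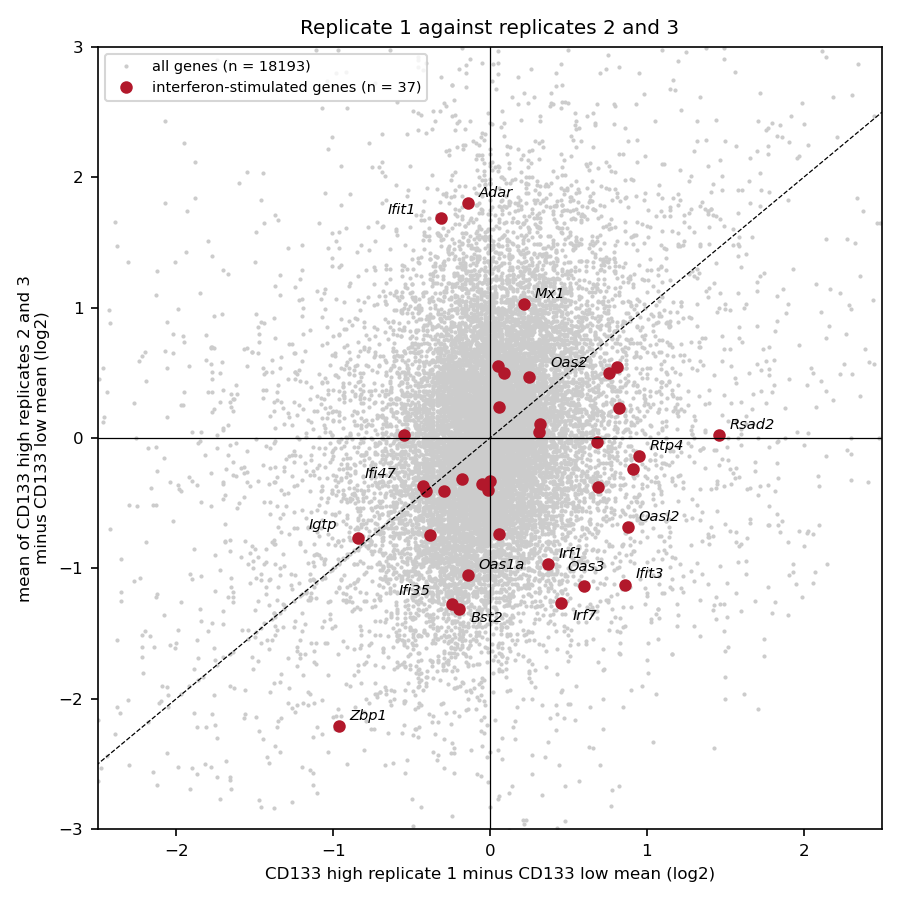
Each point is a gene at its brightest probe set, with the log2 difference of CD133 high replicate 1 from the CD133 low mean on the horizontal axis and that of the mean of CD133 high replicates 2 and 3 on the vertical axis, grey for all 18193 genes and red for the 37 members. The axes are cropped and some grey points lie outside them. Igtp and Ifi47 lie near the dashed line of equal values, whereas Irf1, Irf7, Ifit3, Oas3 and Oasl2 lie at the lower right and Adar and Ifit1 at the upper left.

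Leaving out CD133 high replicate 1 changed the count of members past the threshold. Then 2 members were higher (Adar and Ifit1), or 5.41%, against 11.7% of all genes, and 10 were lower (Bst2, Ifi35, Ifi47, Ifit3, Igtp, Irf1, Irf7, Oas1a, Xaf1 and Zbp1), or 27%, against 14.6% of all genes. The median of the 37 members was −0.33 in that fit, beside 0.00 for all genes. Leaving out any other array gave 0 members past the threshold in limma. With a covariate for the hybridisation controls the median was 0.14. Irf1, Irf7 and Ifit3 then had positive differences of 0.47, 0.46 and 0.67, none past the threshold. These controls were higher on CD133 high replicates 2 and 3 (11.05 and 10.81) than on any CD133 low array (9.94 to 10.28). Such a fit therefore cannot separate the controls from the fraction and leans on CD133 high replicate 1 (10.18).

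The probe sets of a member did not always show the same difference. There were 57 probe sets for the 37 members, and 14 members had more than 1. The differences had opposite signs for 5 of the 14 (Adar, Eif2ak2, Rtp4, Stat2 and Trim25) and 1 sign for 9. In limma 0 of the 57 passed the threshold. Which part of each transcript a probe set reads was not analysed here.

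Rsad2 came nearest, through a probe set that is not its brightest and was singled out after the values were seen. This second probe set read 9.79, 9.50 and 9.77 on the CD133 high arrays and 8.64, 8.37 and 8.62 on the CD133 low arrays. All CD133 high arrays were above by nearly equal amounts, with a difference of 1.15 (SE 0.16), a ratio of 2.21, and an adjusted p of 0.0699. The other probe sets of Rsad2 differed by 0.42 and 0.50 and had CD133 high replicate 1 well above the rest. Over the alternatives its adjusted p lay between 0.00851 and 0.422, and its difference between 1.06 and 1.36. It passed the threshold without CD133 high replicate 1 (0.00851), with array weights (0.031), with equal 75th percentiles (0.0447) and without the dimmest 50% of probe sets (0.045).

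The probe sets of Adar differed by 1.16, −0.43 and −0.84. The probe set at −0.43 read 8.11, 8.15 and 8.13 in CD133 high against 8.61, 8.56 and 8.49 in CD133 low, without overlap and with an adjusted p of 0.297. The larger positive difference of Adar therefore held for its brightest probe set and not for the other probe sets. A second Cmpk2 probe set read 5.76, 7.12 and 6.52 in CD133 high against 4.43, 0.30 and 0.73 in CD133 low (adjusted p = 0.246), with 2 CD133 low arrays near the bottom of the scale, so no fold is given for it, and its adjusted p was 0.0455 without CD133 high replicate 1. The 3 probe sets of Ifi35 had differences of −1.08, −0.92 and −0.39, and those of Gbp2, Iigp1, Parp14 and Xaf1 had negative signs throughout.

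**Figure D4:**
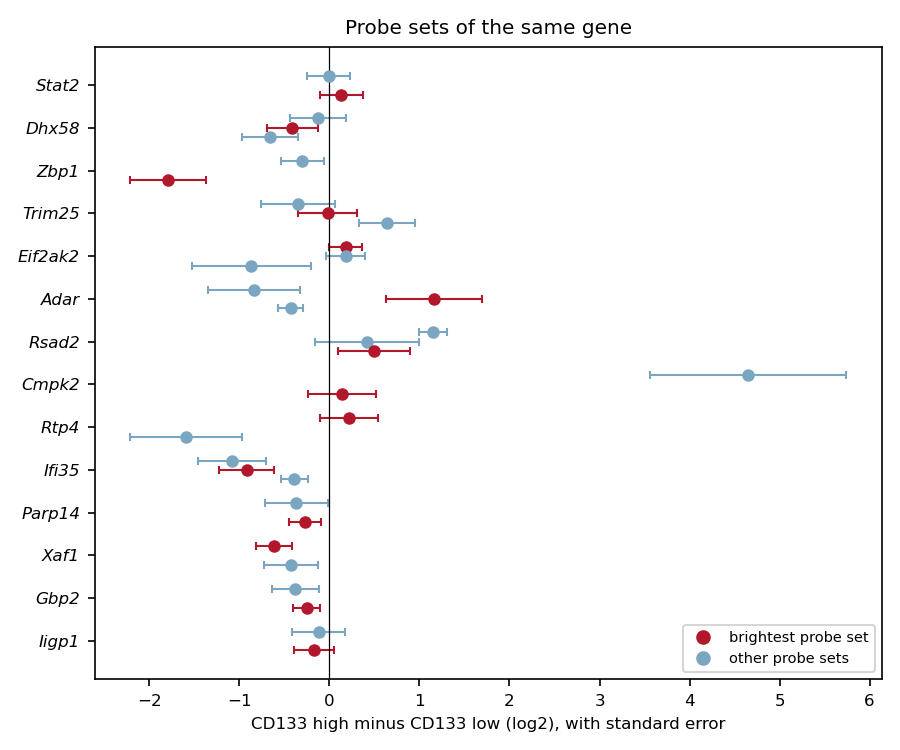
Differences between CD133 high and CD133 low arrays on the log2 scale, with standard errors, for every probe set of the 14 members that have more than 1, red for the brightest probe set and blue for the others. Positive values are higher in CD133 high. The probe sets of Adar, Trim25, Eif2ak2 and Rtp4 lie on both sides of 0, and those of Rsad2 and Ifi35 on 1 side.

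Upstream of these genes, the interferon genes themselves were measured for 10 of 19 listed. In limma 0 passed the threshold, and the list median was −0.36. At an unadjusted p under 0.05 there were 2, where 8.3% of all genes were higher and 9.94% lower. Ifng, the gene of interferon gamma, which T and natural killer cells make, read 6.30, 4.79 and 4.76 in CD133 high against 7.49, 7.52 and 7.68 in CD133 low. All CD133 high arrays were below, with a difference of −2.28 (SE 0.44, adjusted p = 0.159), and −2.79 (adjusted p = 0.00217) without CD133 high replicate 1. Ifnb1, the gene of interferon beta, read 6.64, 6.47 and 5.92 against 7.11, 7.06 and 7.11 in CD133 low (difference −0.75, SE 0.25, adjusted p = 0.297), and −0.90 (adjusted p = 0.0428) without CD133 high replicate 1. Ifnab, a further type I interferon gene, differed by −0.82 (adjusted p = 0.330).

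The receptors and JAK kinases were measured for 9 of 10 listed, with 0 past the limma threshold and a median of −0.13. At an unadjusted p under 0.05 there was 1, beside the same 8.3% and 9.94% of all genes. The type I receptor chains had differences of opposite sign. Ifnar1 read 10.23, 10 and 10.18 in CD133 high against 9.96, 9.60 and 9.72 in CD133 low, without overlap (difference 0.38, SE 0.16, adjusted p = 0.319). Ifnar2 read 10.97, 9.10 and 9.10 against 10.96, 10.92 and 10.73 in CD133 low (difference −1.15, SE 0.50, adjusted p = 0.325), so replicate 1 was level with the CD133 low arrays and the others were lower. The difference of Ifnar2 was −1.77 (SE 0.11, adjusted p = 0.00172) without CD133 high replicate 1. The interferon gamma receptor chains Ifngr1 and Ifngr2 differed by −0.62 and 0.02 (adjusted p = 0.349 and 0.965), and Ifnlr1, a chain of the interferon lambda receptor, by 0.48 (adjusted p = 0.328). Ifngr1 also passed without CD133 high replicate 1, at −0.94 (adjusted p = 0.0163).

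In the 14 genes that sense nucleic acids and lead to interferon the median was −0.31, with 0 past the limma threshold. At an unadjusted p under 0.05 there were 2, again beside 8.3% of all genes higher and 9.94% lower. Sting1, the adaptor of cytosolic DNA sensing, read 9.86, 9.10 and 9.44 in CD133 high against 10.40, 10.32 and 10.21 in CD133 low, without overlap (difference −0.85, SE 0.21, adjusted p = 0.272). Irf8, a myeloid and lymphoid transcription factor, differed by −0.63 (adjusted p = 0.297), and the kinase Ikbke by −0.56 (adjusted p = 0.334). Without CD133 high replicate 1, Sting1 differed by −1.04 (adjusted p = 0.00841), Irf8 by −0.75 (adjusted p = 0.0626) and Ikbke by −0.79 (adjusted p = 0.0324). Of the genes that restrain the signal, 10 of 11 were measured, with a median of −0.17, 0 past the limma threshold and 0 at an unadjusted p under 0.05. Among them Ptpn11, Ptpn6 and Socs1 had the smallest p, with differences of 0.31, −0.23 and −0.40 (adjusted p = 0.364, 0.397 and 0.420). They differed by 0.43, −0.25 and −0.65 without CD133 high replicate 1 (adjusted p = 0.0349, 0.148 and 0.0222).

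Further genes that interferon induces, which are outside the 39, were measured for 31 of 35 listed. Their median was −0.46, with 9 positive and 22 negative differences, 0 past the limma threshold and 14 reaching an unadjusted p under 0.05, where 8.3% of all genes were higher and 9.94% lower. All CD133 high arrays lay below for 12 of the 31, against 12.8% of all genes, and above for 3, against 10.8%. Without CD133 high replicate 1, 4 of the 31 were higher and 11 lower at the threshold. The shares of all genes in that fit were 11.7% and 14.6%. The smallest p belonged to Nlrc5, the activator of class I antigen presentation genes, to the peptide transporter Tap1 and to the immunoproteasome subunit Psmb9. Nlrc5 read 7.06, 7.16 and 7.15 in CD133 high against 8.0, 8.38 and 8.55 in CD133 low, a difference of −1.19 (SE 0.20, adjusted p = 0.11). Psmb9 read 9.32, 8.67 and 8.56 against 9.88, 10.20 and 9.97 in CD133 low, a difference of −1.17 (SE 0.23, adjusted p = 0.174). Without CD133 high replicate 1, Nlrc5 differed by −1.16 (adjusted p = 0.0148), Tap1 by −1.11 (adjusted p = 0.00848) and Psmb9 by −1.40 (adjusted p = 0.00388). The list medians on CD133 high replicates 1, 2 and 3 were −0.27, −0.61 and −0.29. Among the 39, members with the response element in their promoter window had a median difference of −0.26 (14 measured) and those with a window but no match −0.02 (13 measured), with medians of −0.34 and −0.37 without CD133 high replicate 1.

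Genes of other cell types were abundant in both fractions, although the samples are labelled as tumour. Ptprc, the leukocyte common antigen CD45, read 13.20, 12.74 and 13.04 in CD133 high and 12.91, 12.77 and 13.20 in CD133 low, beside the epithelial gene Cdh1 at 12.39, 12.52 and 12.30 against 12.39, 12.36 and 12.28. Of 13 T and natural killer cell markers, 4 fell at the threshold (Cd2, Cd3e, Cd3g and Cd8b1), against 0.231% of all genes. The list median was −1.57, and all CD133 high arrays lay below for 11, against 12.8% of all genes. The 2 with positive differences were Cd8a (0.31, adjusted p = 0.511) and Cd4 (0.44, adjusted p = 0.742). Without CD133 high replicate 1, Cd8a differed by 0.56 (adjusted p = 0.0207), so it did not follow Cd8b1. The median of that list on CD133 high replicates 1, 2 and 3 was −0.89, −1.64 and −1.99. Of 4 B cell markers, 3 fell at the threshold (Cd79a, Cd79b and Ms4a1), against 0.231% of all genes. The other, Pax5, differed by 0.07 (adjusted p = 0.926). The B cell list medians on the same arrays were −3.48, −2.71 and −2.62. Cd4 was near the bottom of the scale throughout, at 1.18 to 3.55.

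Within CD133 high, each of 4 neutrophil markers was highest on replicate 1, as were 38.2% of all genes. On that array each also lay above all CD133 low arrays, as did 28.7% of all genes. Their median was 0.93, −0.66 and −1.35 on replicates 1, 2 and 3 against the CD133 low mean, and their mean log2 value was 12.8, 11.1 and 10.74 in CD133 high and 11.77 to 12.07 in CD133 low. Cxcr2, a chemokine receptor of neutrophils, read 10.45, 7.05 and 7.20 against 9.11, 8.94 and 8.82 in CD133 low, with replicate 1 above and the others below. S100a9 had the same arrangement, at 14.05, 12.50 and 11.68 against 13.64, 13.43 and 13.43 in CD133 low. S100a8 had replicate 2 and Csf3r replicates 2 and 3 within the CD133 low range. Pan-leukocyte markers had medians of 0.04, −0.88 and −1.08 on the same arrays. Macrophage markers had 0.09, −0.05 and 0.10, and fibroblast markers −0.02, 0.27 and 0.34. Plasmacytoid dendritic cell markers had −0.85, −0.36 and 0.47, endothelial markers 0.45, −0.15 and −0.17, and epithelial markers 0.27, 0.18 and −0.04. The part of leukocyte RNA, of the hybridisation controls and of the Gapdh 3' difference in the values of the interferon-stimulated genes was not tested.

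**Figure D5:**
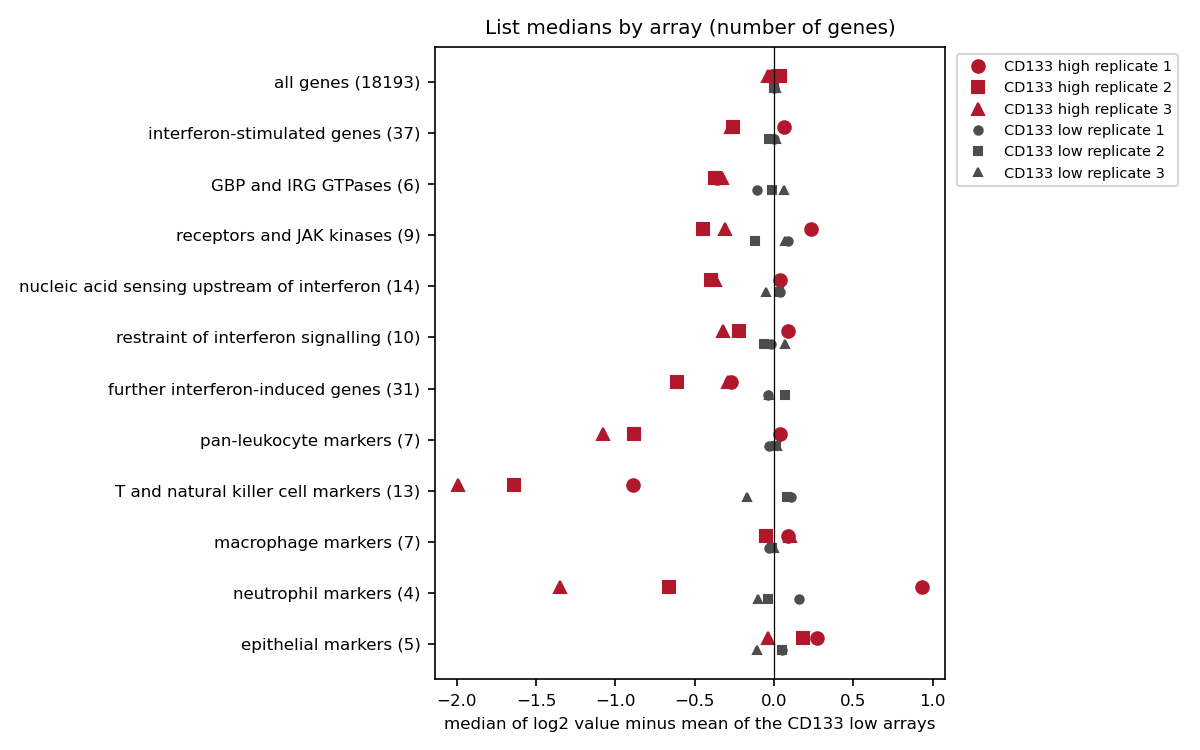
Median over the genes of each list of the log2 value minus the mean of the CD133 low arrays, one symbol for each array, with CD133 high in red above CD133 low in grey and the number of measured genes in brackets. The GTPases have nearly equal medians on the 3 CD133 high arrays, from −0.37 to −0.33, whereas the medians of pan-leukocyte and neutrophil markers differ between replicate 1 and replicates 2 and 3.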

How the data were processed

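Gene expression of sorted CD133 high and CD133 low tumour cells was measured on 3 Affymetrix arrays each, and per the labels' protocols biotinylated cRNA was hybridised. The authors deposited 1 value per probe set and array, whose range is that of a log2 scale. Their summarising and normalising steps are not stated in the labels, and array medians were 6.60 to 6.77. With so few arrays, precision is limited by their number.

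Replicates were numbered in accession order. The table holds 45101 probe sets, and 64 controls were left out, which leaves 45037. The labels name an array type with fewer probe sets than this table, and the names came from the annotation of the larger platform, with 34945 probe sets of 1 gene, of which 34741 matched a RefSeq gene (GRCm38.p6), 932 of several and 9160 unnamed here. No pair of arrays held the same nonzero value in more than 23 probe sets.

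Differences were tested two-sided in limma 3.58.1 (R 4.3.3), with a variance trend and Benjamini-Hochberg adjustment over all probe sets. Exact permutation of so few arrays reaches no two-sided p under 0.1 and was not used. The steps were run on simulated data in which every array had the spread of the CD133 low arrays. That run does not show how they perform with the wider spread of the CD133 high arrays. The named genes are the 39 members, 3 genes of smallest p in each pathway list with the interferon receptor and interferon genes, and markers. Gbp6, Gbp7 and Irgm2 are named in addition as relatives of the GTPase members. The members and lists were chosen with earlier results of these data known. Alternatives covered normalization, dim probe sets, a floor, the variance model, array weights, probe set choice, threshold, the hybridisation controls as a covariate and each array left out in turn.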

Additional observations from a re-analysis of the deposited data

How the results depend on the processing

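No paired analysis was possible because the labels number no replicates. With all arrays 7 probe sets were higher and 75 lower, and 0 of the 37 members passed in limma. At an unadjusted p under 0.05 there were 11 members, where 8.3% of all genes were higher and 9.94% lower. Under 20 alternatives members passed in 2. Without CD133 high replicate 1 there were 2 higher and 10 lower, and with array weights, which gave that array the lowest weight of 0.248, 1 higher (Adar) and 4 lower (Bst2, Ifi35, Igtp and Zbp1). In the pathway lists 0 of 74 genes passed, against 17 with array weights and 1 when a gene's probe sets were averaged. Among all 45037 probe sets, 2133 were higher and 2675 lower with array weights. Without CD133 high replicate 1 these were 4277 and 5326. Leaving out each array in turn gave 0 to 2 members higher, 0 to 10 lower, 0 to 30 pathway genes past the threshold and a median of the members of −0.33 to −0.06. That median was −0.17 with all arrays, 0.14 with a covariate for the hybridisation controls and 0.06 with CD133 high replicate 1 alone.

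Probe sets higher and lower numbered 12 and 152 with equal medians, 13 and 144 with equal 75th percentiles, 11 and 164 without the dimmest 50%, 1 and 6 with no variance trend, 13 and 172 with a robust trend, 2133 and 2675 with array weights, 25 and 170 at a threshold of 0.1, and 0 and 0 with CD133 high replicate 1 alone. Those lower were 180 without the dimmest 25% and 31 with values below 5 set to 5, and genes higher were 13 when probe sets were averaged per gene. Leaving out each array gave 0 to 4277 higher and 0 to 5326 lower, the upper ends without CD133 high replicate 1. The cause was not tested.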
